A study of Homo sapiens with 2 samples.

Results

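The 39 human HOX genes, the protein-coding genes of the HOXA, HOXB, HOXC and HOXD clusters, were followed in lists of RUNX2 and MTA1 peaks from MDA-MB-231, a human breast cancer cell line of the triple-negative type. The genes were taken by name from the RefSeq table of GRCh38, which held 20037 protein-coding genes, and each of the 4 clusters was read with 20 kb on either side of its outermost genes. These 4 regions, 688 kb in all, held 17 of the 61700 RUNX2 peaks and 10 of the 42683 MTA1 peaks on chromosomes 1 to 22, X and Y. The cells were grown in DMEM with fetal bovine serum, no further treatment was given in the labels, and CUT&Tag, in which an antibody directs a transposase to chromatin, was carried out with an antibody against either protein. There was 1 library per antibody and no control library was used here, so no value below has a replicate, no test was possible, and a difference between the lists is a difference between 2 libraries. Expression was not measured in these libraries, so neither the state of the HOX genes nor the markers of the cell line could be examined.

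HOX genes encode homeodomain transcription factors that give cells their position along the body axis. They lie in tight clusters in the order in which they are used, from group 1 (head side) to group 13 (tail side), and genes with the same group number in different clusters are paralogues. Polycomb complexes keep unused HOX genes silent in broad chromatin domains, Trithorax complexes keep used ones active, and TALE proteins such as PBX and MEIS bind DNA together with HOX proteins. RUNX2 is a Runt-domain transcription factor best known for bone formation, and MTA1 is a subunit of the nucleosome remodelling and deacetylase complex NuRD. Groups 1 to 3 are here called anterior (8 genes), groups 4 to 8 central (15 genes) and groups 9 to 13 posterior (16 genes).

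The sequence windows around HOX starts are shown first because a Runt-domain core (TGTGGT or TGCGGT) can be read in them and because a single one lay under a peak. RefSeq windows of GRCh38.p14, from 250 bases before to 50 bases after a transcription start, were available for 20 of the 39 genes as 26 distinct windows. The window of HOXD1 (chr2:176188418-176188717, plus strand) was the only one overlapped by a peak of either list, and capitals mark the 149 bases (152 to 300) under the MTA1 peak. In the other windows capitals mark the core, on either strand. HOXA3 (chr7:27122978-27123277, minus strand, 1 of its 7 listed starts) holds 2 cores, and the windows of HOXC4 (chr12:54016638-54016937, plus strand, shared with HOXC5) and HOXD10 (chr2:176116528-176116827, plus strand) hold 1 each.
HOXD1: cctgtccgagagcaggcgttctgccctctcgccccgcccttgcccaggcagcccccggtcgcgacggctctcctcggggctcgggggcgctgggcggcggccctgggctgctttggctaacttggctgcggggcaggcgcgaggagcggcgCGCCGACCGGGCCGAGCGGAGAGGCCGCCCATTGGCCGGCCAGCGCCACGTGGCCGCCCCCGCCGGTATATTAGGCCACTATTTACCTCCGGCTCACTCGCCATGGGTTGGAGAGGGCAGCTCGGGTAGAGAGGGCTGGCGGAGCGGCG
HOXA3: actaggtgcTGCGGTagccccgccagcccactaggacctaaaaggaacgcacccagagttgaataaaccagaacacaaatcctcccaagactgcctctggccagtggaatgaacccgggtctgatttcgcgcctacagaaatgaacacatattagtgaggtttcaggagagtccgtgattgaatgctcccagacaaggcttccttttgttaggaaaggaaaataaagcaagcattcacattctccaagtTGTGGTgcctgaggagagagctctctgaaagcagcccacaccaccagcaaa
HOXC4: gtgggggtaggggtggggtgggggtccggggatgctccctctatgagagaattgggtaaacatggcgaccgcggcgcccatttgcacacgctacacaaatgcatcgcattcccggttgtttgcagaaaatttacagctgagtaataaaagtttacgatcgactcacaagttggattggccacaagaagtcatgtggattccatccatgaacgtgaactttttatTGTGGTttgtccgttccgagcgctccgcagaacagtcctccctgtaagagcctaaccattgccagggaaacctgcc
HOXD10: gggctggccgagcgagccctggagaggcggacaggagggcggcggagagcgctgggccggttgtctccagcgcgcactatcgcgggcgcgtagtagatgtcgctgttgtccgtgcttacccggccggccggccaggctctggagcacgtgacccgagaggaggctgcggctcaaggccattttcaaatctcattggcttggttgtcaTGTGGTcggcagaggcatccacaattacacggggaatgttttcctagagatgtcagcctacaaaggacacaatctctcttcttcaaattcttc

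A core was present in 4 of the 26 HOX windows (15.4%), the fourth being at another start of HOXA3 (chr7:27113793-27114092, minus strand). The share was 19.0% over 22049 windows of protein-coding genes. None of the genes with a core had a RUNX2 peak within 3 kb of a start, though only 4 of the 39 HOX genes (10.3%) had one. The nearest RUNX2 peak was 37.1 kb from the nearest of the HOXA3 starts, 149 kb from the HOXC4 start and 18.9 kb from the HOXD10 start. That HOXA3 start has a window without a core, and the HOXA3 starts with a core lie farther from a RUNX2 peak. The windows of HOXB1 and HOXD12, which had a RUNX2 peak within 3 kb of the start, held no core in these 300 bases, as did most HOX windows. The share of windows with a core that have a RUNX2 peak over all genes is not given here. Whether core and peak go together was therefore not tested. HOX windows had a median of 22.5 CpG dinucleotides against 21.0 over all windows of protein-coding genes, and the HOXD1 window had 36.

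The peaks were spread unevenly over the clusters. RUNX2 had 9 peaks in HOXB, 6 in HOXD, 2 in HOXA and 0 in HOXC. MTA1 had 5 peaks in HOXB, 3 in HOXD, 2 in HOXC and 0 in HOXA. HOXB is the longest region (240 kb with flanks, against 147 kb for HOXA, 157 kb for HOXC and 143 kb for HOXD), and per 100 kb RUNX2 had 3.75 peaks in HOXB, 4.18 in HOXD and 1.36 in HOXA. The corresponding MTA1 values were 2.08 in HOXB, 2.09 in HOXD and 1.27 in HOXC. Over the 4 regions together there were 2.47 RUNX2 peaks per 100 kb against 2.0 over the genome, and 1.45 MTA1 peaks against 1.38. All 10 MTA1 peaks and 11 of the 17 RUNX2 peaks lay between the outermost HOX genes of their cluster, stretches that make up 528 of the 688 kb. Of the 6 RUNX2 peaks in the flanks, 4 were beyond HOXD13.

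**Figure D1:**
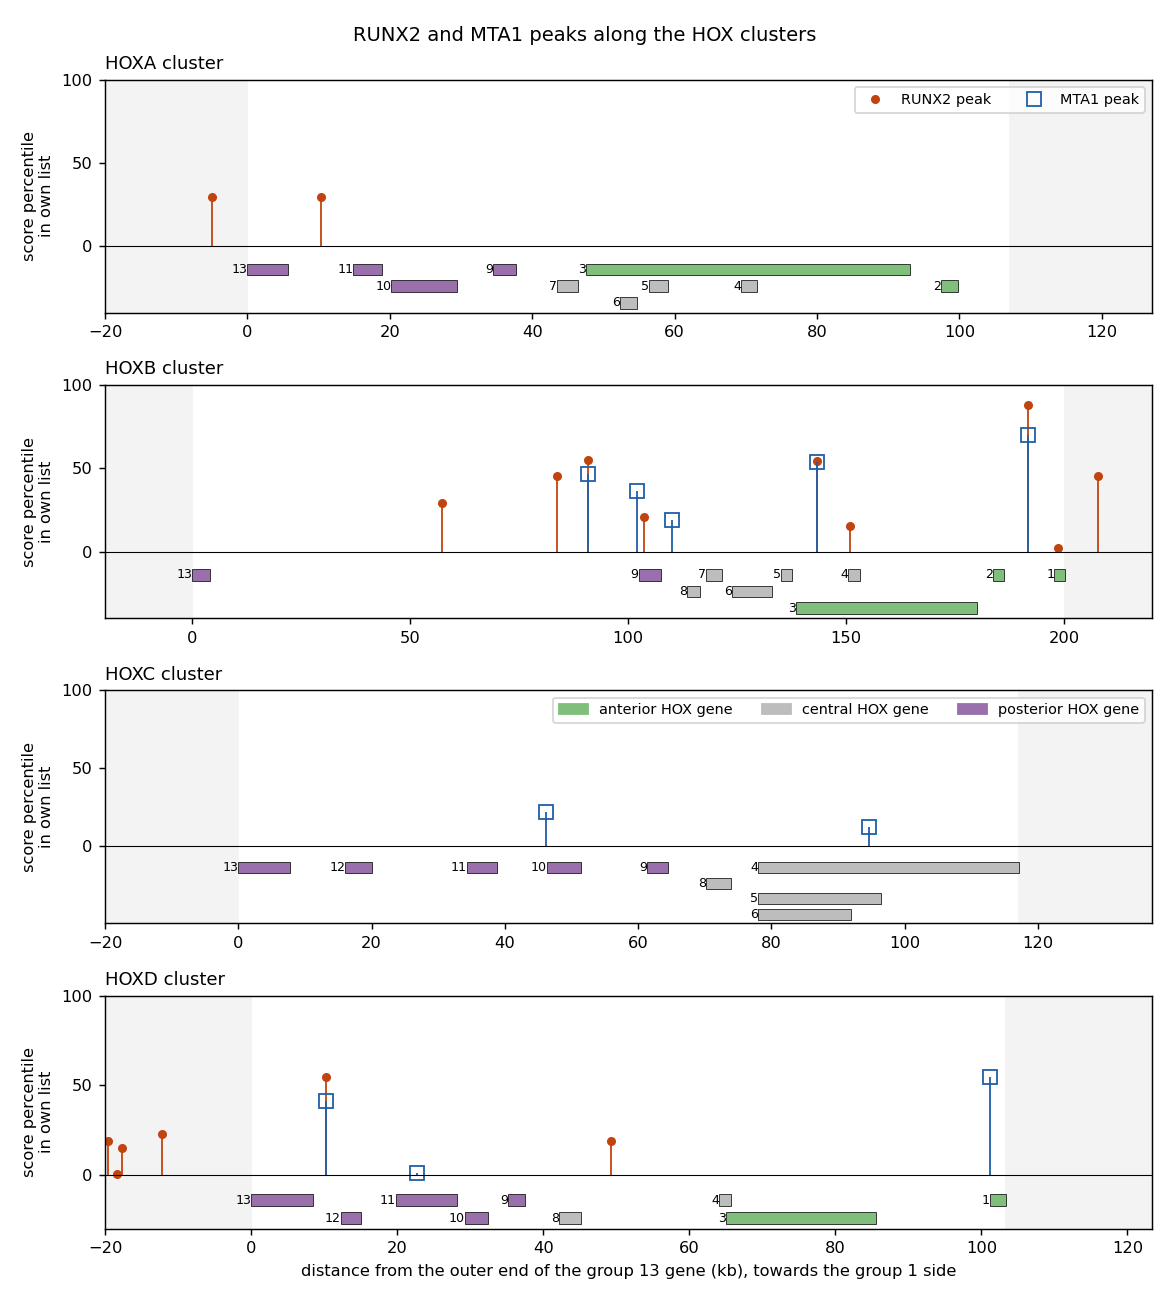
Peaks along the 4 clusters, drawn from the outer end of the group 13 gene (distance in kb, x axis) with the percentile of each peak's score in its own list (y axis). Orange points are RUNX2 peaks, blue squares MTA1 peaks, boxes below the axis HOX genes with their group numbers (1 gene is not drawn), and grey bands the 20 kb flanks. HOXB and HOXD carry most peaks, HOXA has no MTA1 peak and HOXC no RUNX2 peak.

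In the HOXB cluster the strongest HOX peaks of both lists lay at 1 site, in the interval between HOXB1 and HOXB2, genes of hindbrain patterning. The RUNX2 peak at chr17:48537033-48537242 had a score of 21.3, at the 88.3 percentile of its list, and the MTA1 peak at chr17:48537048-48537272 had a score of 11.5, at the 70.3 percentile. The RUNX2 peak was 6.02 kb upstream of the HOXB1 start and in no annotated gene. A second shared site lay inside HOXB3, with a RUNX2 peak at chr17:48585490-48585588 (score 7.0, percentile 54.2) and an MTA1 peak at chr17:48585390-48585614 (score 8.06, percentile 53.8). The RUNX2 peak was 4.65 kb downstream of the outer end of HOXB3, taken as the start. A further shared site was in the long noncoding RNA gene LINC03057, with a RUNX2 peak 11.6 kb upstream of HOXB9 at chr17:48638007-48638105 (score 7.13, percentile 54.8) and an MTA1 peak at chr17:48638021-48638144 (score 7.26, percentile 46.6). These 3 sites held the 3 highest-scoring HOXB peaks of each list.

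The other HOXB peaks belonged to 1 list each. RUNX2 had a peak inside HOXB1 at chr17:48530102-48530200 (score 3.22, percentile 2.26), 0.811 kb downstream of the start. It had another at chr17:48577786-48577884 (score 4.42, percentile 15.3), 0.466 kb downstream of the start of HOXB4, a gene known for expansion of blood stem cells, where the annotated HOXB3 gene also extends. At HOXB9 the lists had separate peaks, RUNX2 at chr17:48625008-48625106 (score 4.73, percentile 20.8), 1.25 kb inside the gene, and MTA1 at chr17:48626582-48626729 (score 6.07, percentile 36.3), 224 bp upstream of it. MTA1 also had a peak 3.34 kb upstream of HOXB8 (score 5.15, percentile 19.2). The remaining RUNX2 peaks were in LINC03057 and LINC02086 (score 6.12, percentile 45.4), in LINC02086 alone (score 5.22, percentile 29.3) and in the flank beyond HOXB1 (score 6.12, percentile 45.4). HOXB13, the prostate-associated gene set apart from the rest of its cluster, lay in a stretch of 107.5 kb, reaching past the flank, with no peak of either list.

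The HOXD cluster had 1 shared site, between HOXD13 and HOXD12, genes of digit and limb formation. The RUNX2 peak at chr2:176097715-176097837 had a score of 7.13 (percentile 54.8), and the MTA1 peak at chr2:176097636-176097832 a score of 6.61 (percentile 41.4). Both were 1.96 kb upstream of the HOXD12 start. MTA1 had its highest HOXD peak over the start of HOXD1, at chr2:176188569-176188765 (score 8.25, percentile 54.6), the peak marked in the HOXD1 window, which also lies in the long noncoding RNA gene HAGLR. The third MTA1 peak, at chr2:176110192-176110307, was 2.91 kb inside HOXD11 and had a score of 3.19, at the 0.857 percentile. RUNX2 had 1 further peak between the outermost genes, at chr2:176136780-176136878 (score 4.62, percentile 19.0), 7.08 kb downstream of the HOXD8 start in the long noncoding RNA genes HOXD-AS2 and LOC401021.

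The other 4 RUNX2 peaks of HOXD were in the flank beyond HOXD13, past the neighbouring homeobox gene EVX2, and in no annotated gene. They lay 17.4 to 24.8 kb from the HOXD13 start and had percentiles of 0.655 to 22.9. The highest of them was at chr2:176075182-176075280 with a score of 4.84. This flank therefore gave HOXD its RUNX2 number, since between the outermost HOXD genes there were 1.93 RUNX2 peaks per 100 kb.

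HOXA and HOXC had 2 peaks each, at percentiles of 11.8 to 29.3. In HOXA, RUNX2 had a peak 4.47 kb upstream of HOXA11 at chr7:27189707-27189805 and another inside HOTTIP, the long noncoding RNA gene next to HOXA13, at chr7:27205057-27205155. Both had a score of 5.22 at the 29.3 percentile, a value that 6168 RUNX2 peaks share. In HOXC, MTA1 had a peak 70 bp upstream of HOXC10, a gene of the lumbar and hindlimb region, at chr12:53984961-53985076 (score 5.33, percentile 21.8), inside the antisense gene HOXC-AS3. The other was inside HOXC4 and HOXC5 at chr12:54033400-54033515 (score 4.58, percentile 11.8), 16.5 kb from the outer start that HOXC4, HOXC5 and HOXC6 share. Only that start was used for these 3 genes, so any start closer to the peak was not examined.

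The empty clusters were parts of longer empty stretches. HOXC lay in 321 kb of chromosome 12 without a RUNX2 peak, and 1280 of 61676 intervals between neighbouring RUNX2 peaks (2.08%) were at least as long, with a median interval of 16.6 kb. HOXA lay in 299.5 kb of chromosome 7 without an MTA1 peak, a length reached by 1801 of 42659 intervals (4.22%), with a median of 21.1 kb. These are shares of intervals, not of the genome, of which long intervals take up more. Of all fixed windows of 100 kb, 39.7% had no RUNX2 peak and 49.8% no MTA1 peak. Where no peak was listed the signal may be weak rather than absent, and the depth of the libraries is unknown.

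At gene starts the HOX genes had few peaks of either protein. RUNX2 had a peak within 3 kb of the start of 4 of the 39 HOX genes (10.3%), namely HOXB1, HOXB4, HOXB9 and HOXD12, while 58.3% of the 15842 protein-coding genes with a listed start had one. MTA1 had one at HOXB9, HOXC10, HOXD1, HOXD11 and HOXD12, or 5 genes (12.8%), against 59.0%. Peaks of both lists were at the starts of HOXB9 and HOXD12 (5.13% of HOX genes against 51.7%), and a peak of either list was at 7 HOX starts (17.9% against 65.6%). The other 32 HOX genes had none. The start was listed for 20 HOX genes and was the outer gene end for the other 19, and among the 20 the counts were 2 for RUNX2, 3 for MTA1 and 4 for either list.

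Developmental transcription factor genes of other families had higher shares. Of the 52 SOX, FOX and PAX genes with a listed start, RUNX2 had a peak within 3 kb of 20 (38.5%) and MTA1 of 26 (50%). The distance from a start to the nearest peak differed in the same way. For HOX genes its median was 20.4 kb for RUNX2 and 16.5 kb for MTA1, for SOX, FOX and PAX genes 5.3 kb and 2.73 kb, and for all protein-coding genes 0.645 kb and 0.325 kb. By cluster the median RUNX2 distance was 8.03 kb in HOXB, 14.1 kb in HOXD, 37.1 kb in HOXA and 132 kb in HOXC. For MTA1 it was 6.47 kb in HOXD, 7.33 kb in HOXB, 16.5 kb in HOXC and 100.4 kb in HOXA. Neighbouring genes of a cluster share their nearest peak, so these genes are not independent.

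**Figure D2:**
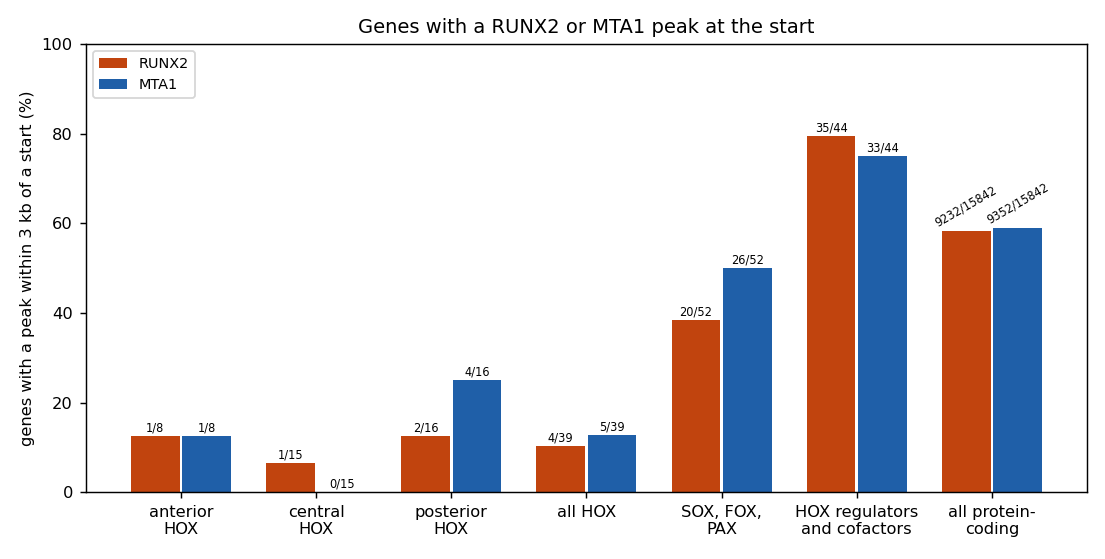
Share of genes with a RUNX2 (orange) or MTA1 (blue) peak within 3 kb of a start (percent, y axis) by gene class (x axis), with the number of genes above each bar. HOX genes stand at 10.3% and 12.8%, SOX, FOX and PAX genes at 38.5% and 50%, and all protein-coding genes at 58.3% and 59.0%.

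The counts moved with the rule while the HOX share stayed under that of all genes. With a window of 1 kb, RUNX2 had 2 HOX genes (52.1% of all genes), MTA1 had 3 (53.9%) and either list 5 (59.1%). With a window of 5 kb there were 8 HOX genes for RUNX2 (62.6% of all genes), 8 for MTA1 (62.2%) and 12 for either list (69.7%), and the genes gained by RUNX2 were HOXA11, HOXA13, HOXB3 and HOXD13. Restricting each list to its upper scores, from the median on, left HOXD12 for RUNX2 (43.7% of all genes) and HOXD1 for MTA1 (44.9%), and thus 2 genes for either list (51.6%). Peaks wider than the narrowest width of their list left 1 gene for RUNX2 (52.3%), 3 for MTA1 (54.2%) and 3 for either (59.8%). Of the 10000 peaks with the highest scores in either list, none was at a HOX start, while 17.2% of all genes had such a RUNX2 peak, 28.8% such an MTA1 peak and 31.7% either. When either end of a gene counted, there were 5 HOX genes for RUNX2 (59.9%), 8 for MTA1 (59.1%) and 10 for either list (67.0%).

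Between anterior and posterior HOX genes the counts were too small to set apart. A peak of either list was at the start of 2 of 8 anterior genes (HOXB1 and HOXD1), 1 of 15 central genes (HOXB4) and 4 of 16 posterior genes (HOXB9, HOXC10, HOXD11 and HOXD12). RUNX2 alone had 1 anterior, 1 central and 2 posterior genes, and MTA1 had 1, 0 and 4. Cluster and class cannot be told apart in these counts, because HOXC has no anterior gene and 6 of the 7 genes lie in HOXB or HOXD. Within HOXB there was 1 gene of each class, and within HOXD there were 1 of 2 anterior, 0 of 2 central and 2 of 5 posterior genes. In neither list did more than 1 gene of any paralogue group have a peak at its start, so the 4 RUNX2 genes came from 4 groups and the 5 MTA1 genes from 5. The 7 genes of either list came from 6 of the 13 groups, with HOXB1 and HOXD1 both in group 1. The spread expected from counting alone is not given here, so these numbers are not read as a trait of HOX genes.

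Assigned to the nearest HOX start, more peaks went to posterior genes, which are also the largest class (16 genes, against 15 central and 8 anterior). Of the RUNX2 peaks 11 were nearest to a posterior, 4 to an anterior and 2 to a central gene, and of the MTA1 peaks 5, 3 and 2. The posterior RUNX2 peaks included the 4 in the flank beyond HOXD13 and those 11.6 to 45.1 kb upstream of HOXB9. Within 3 kb of a start were 2 of the 11 posterior RUNX2 peaks and 4 of the 5 posterior MTA1 peaks. The peaks nearest to anterior genes had the higher scores, with a median percentile of 49.8 for RUNX2 and 54.6 for MTA1, against 29.3 and 36.3 for those nearest to posterior genes. These medians rest on 4 and 3 anterior peaks. The median distance from a start to a RUNX2 peak was 28.8 kb for anterior, 33.0 kb for central and 16.5 kb for posterior genes.

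HOX peaks had median ranks below the middle of their lists, and most of the RUNX2 peaks had the narrowest width of their list. The median percentile of the score was 29.3 for the 17 RUNX2 peaks (0.655 to 88.3) and 38.8 for the 10 MTA1 peaks (0.857 to 70.3). The score reached the median of its list in 4 of 17 RUNX2 and 3 of 10 MTA1 peaks, and none of them was in the top 10% of either list. The narrowest width, 99 bp, was that of 13 of the 17 RUNX2 peaks (76.5%) against 31.7% of the whole list. The 4 wider RUNX2 peaks had a median percentile of 50.1 in the whole list, which includes the narrowest peaks. The median rank of wider peaks elsewhere is not given here, so whether wider HOX peaks rank low among their like was not tested. Peaks of the narrowest width reached percentiles of 54.2 in HOXB3 and 54.8 in LINC03057. For MTA1 the narrowest width, 116 bp, was that of 3 of 10 peaks (30%) against 26.0%.

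The lists overlapped at the 4 sites described above, the HOXB1 to HOXB2 interval, HOXB3, LINC03057 and the HOXD12 upstream site. An overlap of at least 1 bp thus held for 4 of 17 RUNX2 peaks (23.5%, exact 95% interval 6.81% to 49.9%) and for 4 of 10 MTA1 peaks (40.0%, 12.2% to 73.8%). Over the whole lists the shares were 45.4% (45.0% to 45.8%) and 65.5% (65.0% to 65.9%), which lie within the wide HOX intervals. These intervals cover counting over peaks only. The overlap went with the score. All 4 HOX RUNX2 peaks at or above the median score overlapped an MTA1 peak (70.3% in the whole list), and 0 of the 13 below it did (20.4% in the whole list), where a count of 0 allows a share of up to 23.1% (3 counts of the 13). For MTA1 the overlap was 2 of 3 at or above the median (88.4%) and 2 of 7 below it (42.5%).

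**Figure D3:**
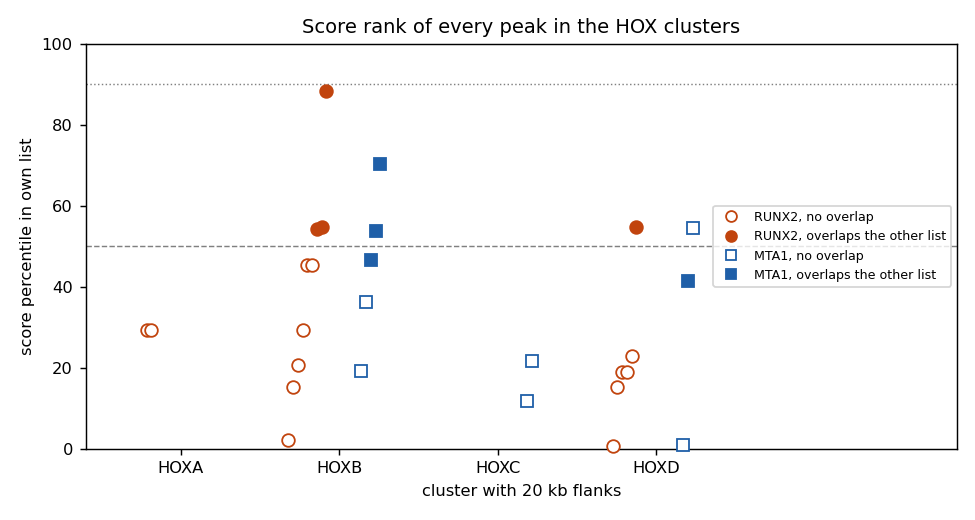
Percentile of the score within its own list (y axis) for every RUNX2 (orange circles) and MTA1 (blue squares) peak, by cluster (x axis), with filled symbols for peaks that overlap the other list. The dashed line marks the median of a list and the dotted line the top 10%. No peak reaches the dotted line, and the 4 filled RUNX2 points are the 4 above the dashed line.

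The clusters had fewer peaks than the average gene-rich window, but not in every case fewer than their own surroundings. In 499 fixed windows of 100 kb with 5 or more protein-coding genes there were on average 6.49 RUNX2 and 5.75 MTA1 peaks, and 8.42% and 11.2% of these windows had none. Between the outermost HOX genes there were 4.0 RUNX2 peaks per 100 kb in HOXB, 1.93 in HOXD, 0.934 in HOXA and 0 in HOXC. MTA1 had 2.9 in HOXD, 2.5 in HOXB, 1.71 in HOXC and 0 in HOXA. From 100 to 500 kb outside the clusters the densities were 3.12 RUNX2 and 2.56 MTA1 peaks per 100 kb. In that zone 11 of 100 RUNX2 and 16 of 82 MTA1 peaks were in the top 10% of their lists. At 20 to 100 kb the densities were 2.34 and 1.87, against 2.08 and 1.89 between the outermost genes of all clusters. In its own zone of 100 to 500 kb HOXB had 3.75 RUNX2 peaks per 100 kb and HOXD had 1.75 MTA1 peaks, both below the density between their outermost genes. For the other list of each, HOXB had 3.38 MTA1 and HOXD 2.5 RUNX2 peaks there, both above that density. HOXC had 4.88 RUNX2 and 3.75 MTA1 peaks there, and HOXA had 1.38 of each, all above it. The nearer zone of 20 to 100 kb, with 1 to 9 peaks per cluster and list, gave another order. HOXB had 5.62 RUNX2 and 4.38 MTA1 peaks per 100 kb in it, both above the density between its outermost genes. HOXD had 1.87 and 1.25, both below. HOXA had 0.625 of each and HOXC 1.25 of each, above only where the density between the outermost genes was 0. The nearest RUNX2 peak of the top 10% was 41.7 kb from HOXB, 211 kb from HOXC, 300.3 kb from HOXD and 664 kb from HOXA. For MTA1 it was 44.8 kb from HOXB, 133 kb from HOXC (in SMUG1), 228 kb from HOXA (in SKAP2) and 919 kb from HOXD (in ATF2).

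**Figure D4:**
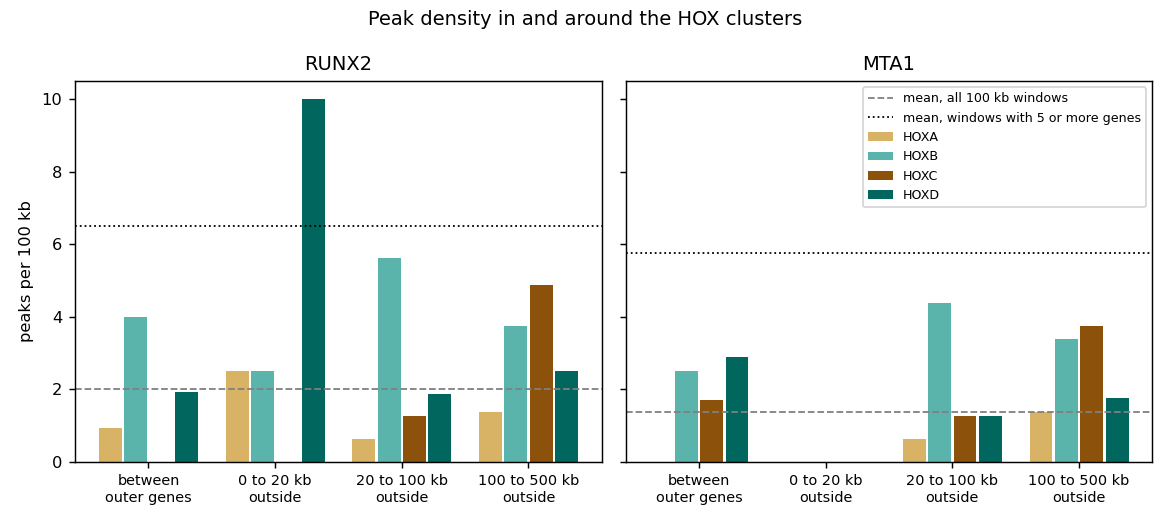
Peaks per 100 kb (y axis) between the outermost HOX genes and in zones outside them (x axis), for RUNX2 (left) and MTA1 (right), with 1 bar per cluster. The dashed line is the mean of all windows of 100 kb and the dotted line the mean of windows with 5 or more protein-coding genes. Between the outermost genes all bars stay below the dotted line, and the HOXD bar at 0 to 20 kb for RUNX2 is the group of 4 low-scoring peaks beyond HOXD13.

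The genes that act on or with HOX genes had peaks at most starts, as did protein-coding genes at large. Of 52 such genes, 44 had a listed start, and within 3 kb of it RUNX2 had a peak at 35 (79.5%), MTA1 at 33 (75%) and both at 32 (72.7%), against 58.3%, 59.0% and 51.7% of all genes with a listed start. Among the TALE cofactors 6 of 7 had a RUNX2 and 5 an MTA1 peak. For Polycomb genes the counts were 17 and 15 of 20, for Trithorax genes with CTCF 7 and 8 of 9, and for retinoic acid receptors with CDX genes, which regulate HOX clusters in the embryo, 5 and 5 of 8. The last are shares of 62.5%, close to those of all genes. Peaks of the top 10% of both lists were at the starts of PKNOX1 (a TALE cofactor, percentile 95.5 for RUNX2 and 97.5 for MTA1), PHF19 (a Polycomb protein, 97.4 and 93.7), MEN1 (menin, of the Trithorax complexes, 96.7 and 98.3), CTCF (an insulator protein, 95 and 98.5) and RARA (a retinoic acid receptor, 92.6 and 90.9). No peak of either list was at MEIS3, PCGF2, RNF2, PHC1, PSIP1, RXRG, CDX2 or CDX4.

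The labels name hg19, whereas the positions were read against GRCh38, so the fit was examined near the clusters. Within 5 Mb of each cluster, 13.3% to 34.7% of RUNX2 peaks were no more than 1 kb from the end of a protein-coding gene as listed, and 1.12% to 9.54% after a move of 100 kb to either side. The MTA1 shares were 21.4% to 40.5% and 1.2% to 12.4%. Over the whole lists the shares as listed were 17.5% for RUNX2 and 24.6% for MTA1. After the move they were 4.27% to 4.29% and 4.57% to 4.58%. Near every cluster and over the whole lists, the positions thus fitted GRCh38 gene ends better as listed than moved. The fit to hg19 gene ends is not given here. Exons and introns were not used here, so positions inside a gene are given by the gene alone.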

How the data were processed

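CUT&Tag libraries for RUNX2 and MTA1 were made from MDA-MB-231, 1 for each antibody. The authors deposited 1 peak list per library with a score per peak. No source used here gives the scale of the score, which served only as a rank within its list. The submitters' processing notes name hg19, CASAVA 1.4, Bowtie 0.12.8, MACS and MACS2 without roles. The labels and the methods name different antibody suppliers, and the labels describe ligation libraries, so the products and the preparation are uncertain. Read counts were not used here and depth is unknown.

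Peaks on chromosomes 1 to 22, X and Y were joined with RefSeq genes (GRCh38) and promoter windows (GRCh38.p14). A HOX start was a listed one for 20 genes and otherwise the outer gene end on the strand of its cluster. Genes were called with a peak within 3 kb of a start, and overlap meant at least 1 bp. Percentiles are ranks within a list, and exact (Clopper-Pearson) 95% intervals cover counting only. All HOX genes with a peak at a start, the 3 highest peaks of each list per cluster, and regulators with top 10% peaks of both lists or no peak were named. The values of 1 HOX gene are not reported here, though it is in the counts. Regulators and HOX groups were lists of this work, and members and lists were chosen with earlier results of these data known. Python 3.11.15 with pandas 2.3.3, numpy 2.4.6, scipy 1.17.1 and matplotlib 3.10.9 was used, and counting was tested on simulated data.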

Additional observations from a re-analysis of the deposited data

How the results depend on the processing

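No paired analysis was possible because each antibody had 1 library and no test was run. Values below are RUNX2 then MTA1, from 17 and 10 peaks in the cluster regions, and 4 and 5 HOX genes with a peak at the start. Peaks at or above the median score left 4 and 3 peaks and 1 and 1 genes, and the 10000 highest-scoring peaks left 1 and 0 peaks and 0 and 0 genes. Peaks wider than the narrowest left 4 RUNX2 peaks and 1 and 3 genes. No flank gave 11 RUNX2 peaks, and a flank of 100 kb gave 32 and 22 peaks. Windows of 1 kb and 5 kb gave 2 and 3 genes and 8 and 8 genes. Either gene end gave 8 MTA1 genes, and listed starts only, chosen after seeing the data, gave 2 and 3. The overlap of RUNX2 peaks, 23.5%, became 50% at or above the median score of both lists, 0% in the 10000 highest and 50% among wider peaks, and their median percentile of 29.3 became 50.1 among wider peaks. For MTA1 the 10000 highest left no peak to overlap. Anterior, central and posterior genes with a peak of either list, 2, 1 and 4, became 1, 0 and 1 at or above the median score, 0, 0 and 0 in the 10000 highest, and 1, 0 and 2 among wider peaks. A window of 1 kb gave 2 posterior genes, either gene end 3 central genes, and anterior as groups 1 to 4 gave 0 central genes. Regulators in the 10000 highest were 12 (27.3%) and 20 (45.5%), where all genes had 17.2% and 28.8%, against 35 and 33. In all, 39 values moved and 27 did not. The cause was not tested, except that stricter rules leave fewer peaks. The outer zones, the fixed windows, the overlap by score and the local build check were also chosen after seeing the data.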

Other observations

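The HOX regions also hold 28 long noncoding RNA genes and 8 microRNA genes. A RUNX2 peak lay inside 6 of the 28 long noncoding genes, namely HOTTIP, LOC105371808, LINC03057, LINC02086, HOXD-AS2 and LOC401021, and an MTA1 peak inside 3, namely LINC03057, HOXC-AS3 and HAGLR. Over 18303 long noncoding RNA genes of the table the shares with a peak inside were 32.3% for RUNX2 and 26.4% for MTA1, without regard to gene length. HOTAIR, transcribed from HOXC, had its nearest RUNX2 peak at 94.4 kb and its nearest MTA1 peak at 10.0 kb. None of the 8 microRNA genes had a peak inside. No share over all microRNA genes is given here, so this count is not read as a trait of HOX microRNA genes. MIR10A, between HOXB4 and HOXB5, lay 1.95 kb from a RUNX2 peak, and MIR10B in HOXD lay 13.4 kb from one. MIR7704 lay 78 bp from the MTA1 peak at the HOXD1 start, and MIR615 lay 0.435 kb from the MTA1 peak inside HOXC5.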
